A study of Mus musculus with 2 samples.

Results

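Genes of arginine metabolism and macrophage polarization, 7 of the 27998 genes in the deposited tables, were followed through injured mouse muscle. They were Nos2, Chil3, Retnla, Mrc1, Il10, Tnf and Cd86, given as a list of names with no threshold on their values but chosen with earlier results of these data known, and all 7 were present in the tables. Counts were read from the table of called cells and summed over the cells of each deposited cell type label and day. The questions were whether genes named M1 and M2 markers separate the labels named M1 and M2, and whether the markers occur together in single cells.

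The data were 2 single-cell RNA libraries of tibialis anterior, a muscle at the front of the lower leg, made with droplet chemistry after injury by notexin, a venom toxin that kills muscle fibres. There was 1 library for day 2 and 1 for day 7, so no difference has a replicate check. The ranges in parentheses are 95% intervals for counting error alone. The sample labels gave C57Bl/6 females of 7 months for both days, with no transgene or uninjured control, whereas the deposited cell annotation gave C57BL/6J males of 4 months at day 2 and 7 months at day 7, with 1 mouse per library. The libraries held 5 and 1 counts of Xist against 6575 and 4856 counts of 4 Y-linked genes at days 2 and 7, which goes with the annotation and not with the sample labels. Age, mouse, library and day therefore cannot be told apart.

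Macrophages recruited to injured tissue are often described along an axis with an inflammatory end, called M1, and a reparative end, called M2. Arginine is used at both ends, as the source of nitric oxide and citrulline through nitric oxide synthase, and as the source of ornithine, from which polyamines and proline are made. In cultured macrophages, interferon-gamma and bacterial products induce nitric oxide synthase, and the cytokines IL-4 and IL-13 induce markers such as Mrc1, Chil3 and Retnla. In regenerating muscle, inflammatory monocytes arrive first and cells with a reparative programme follow.

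After limits on genes, transcripts and mitochondrial share, 3178 cells at day 2 and 3196 at day 7 were kept. Of these, 1292 and 757 carried 1 of 6 monocyte or macrophage labels, with 16485355 and 7519919 counts and medians of 11696 and 8546 counts per cell. All 10 markers fixed for this class were detected in it on both days, at a summed level of 17067 CPM at day 2 and 32667 at day 7, where CPM is a gene's counts scaled to a common total for each group of cells. The labels were made from expression, so the levels of genes used to name them are a description and no check. Cx3cr1 stood at 29.96 and 516 CPM in M2 Macro. (Cx3cr1_hi) and at 2.90 and 230 CPM in M2 Macro. (Cx3cr1_lo). That order held within each day, but the second label at day 7 stood above the first at day 2. Ccr2 stood at 813 and 762 CPM in Monocyte (Inflammatory), a label not named for it. In this paragraph no other gene in a label name is given. In Monocyte (Patrolling), a label the authors describe as negative for Cx3cr1, Cx3cr1 stood at 10.8 and 199.7 CPM. Markers of neutrophils summed to 95.4 and 77.1 CPM within the class, and 142 (11.0%) and 51 (6.74%) of its cells held at least 3 counts of them. Markers of fibro-adipogenic progenitors (FAPs) summed to 226 and 375 CPM there, and myogenic markers to 11.5 and 422 CPM. The part of these cells in the results was not tested unless a value without them is given. The 2 libraries shared 1 kept barcode, which was a monocyte or macrophage barcode.

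Positions are from GENCODE vM21 on GRCm38. The enzyme gene Nos2 (chr11:78920787-78960254) lies on the plus strand. Of the M2 markers, Chil3 (chr3:106147554-106167564) lies on the minus strand, and Retnla (chr16:48842551-48844461), Mrc1 (chr2:14229392-14332057) and Il10 (chr1:131019845-131024974) on the plus strand. The M1 markers Tnf (chr17:35199381-35202007) and Cd86 (chr16:36603869-36666081) both lie on the minus strand. All 7 are annotated as protein-coding. RefSeq promoter entries were at hand for 4 of the 7, and they are shown because these 4 genes moved apart between the days: Chil3 and Mrc1 went down, Tnf went up and Retnla came from a few cells. Each sequence is the strand of the gene, 5′ to 3′, on GRCm38.p6, and ends at the last base before the annotated gene. Capitals mark matches to motifs searched on both strands in the 250 bases before the RefSeq start, of which 192 are shown for Retnla and 228 for Mrc1, whose RefSeq start lies inside the annotated gene.
Chil3, chr3:106167565-106167814: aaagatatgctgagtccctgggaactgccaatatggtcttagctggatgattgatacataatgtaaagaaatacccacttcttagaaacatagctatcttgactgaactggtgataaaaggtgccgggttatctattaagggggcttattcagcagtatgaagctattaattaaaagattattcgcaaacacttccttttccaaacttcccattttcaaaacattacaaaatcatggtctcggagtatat
Retnla, chr16:48842359-48842550: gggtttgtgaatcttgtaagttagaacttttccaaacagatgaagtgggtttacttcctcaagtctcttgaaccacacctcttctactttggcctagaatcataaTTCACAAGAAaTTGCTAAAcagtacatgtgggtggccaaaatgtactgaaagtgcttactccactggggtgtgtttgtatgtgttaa
Mrc1, chr2:14229164-14229391: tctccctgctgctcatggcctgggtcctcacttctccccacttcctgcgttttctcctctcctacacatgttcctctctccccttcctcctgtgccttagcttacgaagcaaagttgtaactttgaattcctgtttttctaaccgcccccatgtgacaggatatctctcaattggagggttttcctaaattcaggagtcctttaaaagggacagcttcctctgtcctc
Tnf, chr17:35202008-35202257: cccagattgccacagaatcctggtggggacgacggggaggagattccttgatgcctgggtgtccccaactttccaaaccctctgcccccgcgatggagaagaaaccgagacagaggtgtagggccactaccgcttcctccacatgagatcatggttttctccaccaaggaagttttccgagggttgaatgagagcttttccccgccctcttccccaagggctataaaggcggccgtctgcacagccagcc

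The Retnla sequence held a STAT6-type palindrome, TTCNNNNGAA, and beside it the C/EBP-type letters TTGCNNAA. STAT6 carries the IL-4 signal into the nucleus. The other 3 sequences held none of the letters searched. Over 32851 promoters, 5.85% held the STAT6-type letters and 9.56% the C/EBP letters. The NF-kB core GGGNNTTNCC was held by 4.11% and the hypoxia core ACGTG by 16.6%, and neither was in any of the 4. A match is a run of letters and not a measured binding site, and the lack of a match says only that these letters are not in this window.

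**Figure D1:**
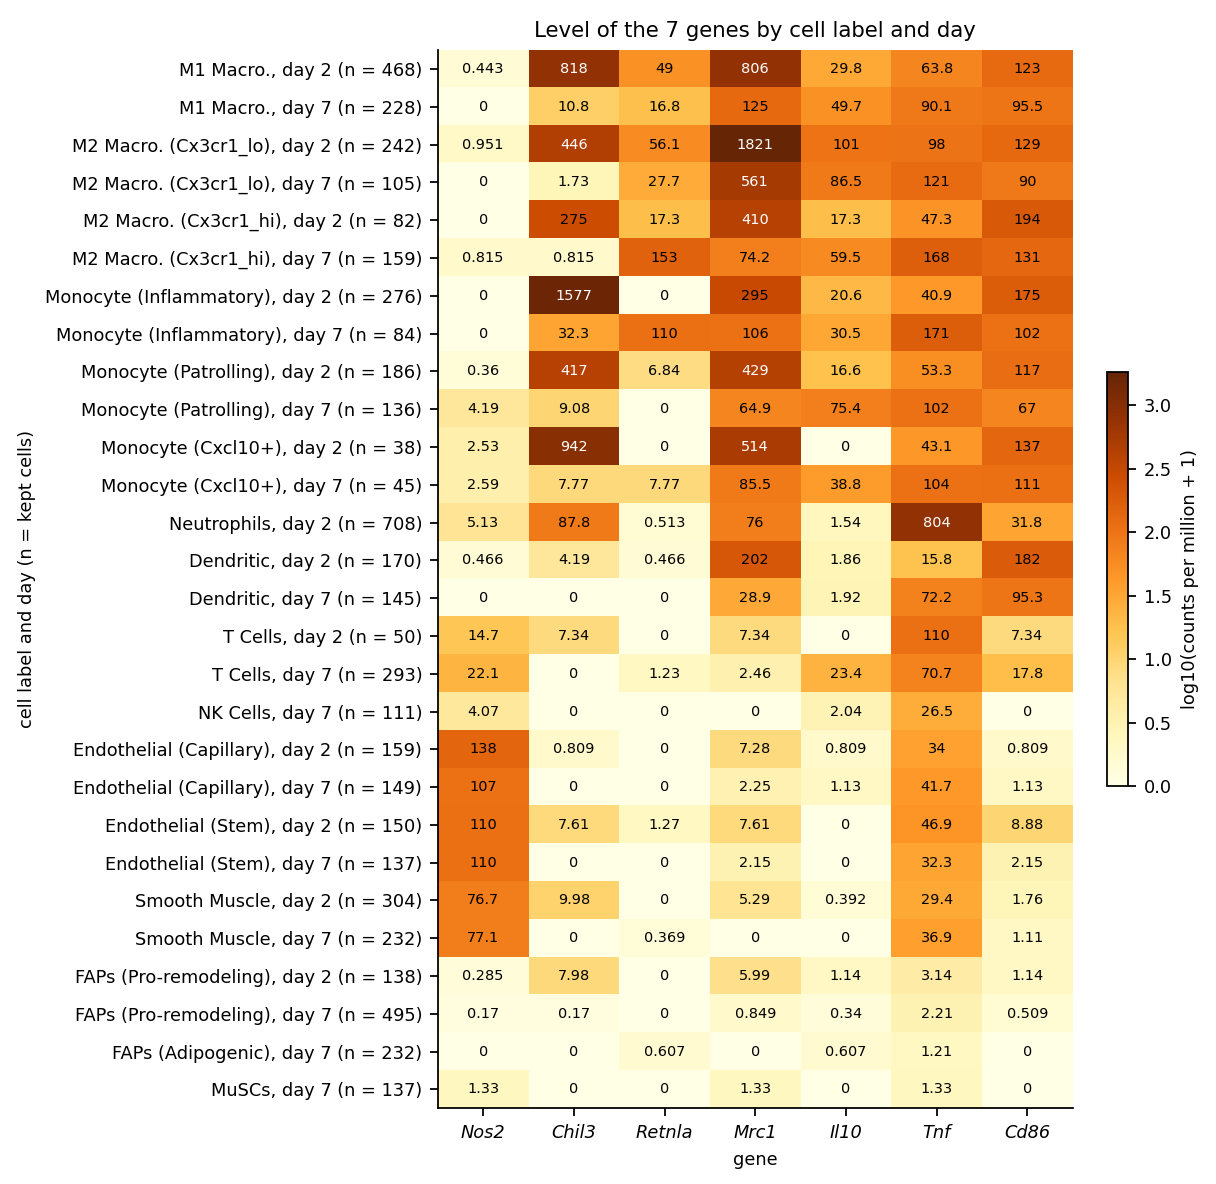
Level of the 7 genes (columns) in the 6 monocyte and macrophage labels and in a choice of the other labels with at least 50 kept cells, by day (rows, n = kept cells); numbers are CPM and colour is log10(CPM + 1). Chil3, Mrc1 and Retnla are darkest in monocytes and macrophages, Nos2 in endothelial and smooth muscle labels, and Tnf in day 2 neutrophils.

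Nos2, the inducible nitric oxide synthase and the textbook M1 enzyme, was close to missing from the monocytes and macrophages. Monocytes and macrophages had 8 counts on each day, or 0.485 and 1.06 CPM, below the 7.53 and 12.9 CPM of ambient RNA, read from barcodes too small to be cells, and their level in M1 Macro. was 0.443 CPM at day 2 with 0 counts at day 7. Of the 8 counts at day 7, 6 lay in 1 Monocyte (Patrolling) cell, and 7 lay in 2 cells with under 3 counts of endothelial markers. No day comparison was made for so few counts. Instead the endothelial labels held 263 of 680 Nos2 counts at day 2 and 153 of 414 at day 7, and the Smooth Muscle label 392 and 209. Endothelial (Capillary) cells were at 138 and 107 CPM, Endothelial (Stem) at 110 on both days, and Smooth Muscle at 76.7 and 77.1, and the log2 ratios of -0.36 in Endothelial (Capillary) and -0.01 in Endothelial (Stem) had intervals that spanned 0. Smooth Muscle cells mostly carried endothelial RNA too. At least 3 counts of endothelial markers were found in 289 of its 304 cells at day 2 and 196 of 232 at day 7, and those cells held 392 of 392 and 208 of 209 Nos2 counts. The other 15 and 36 cells were shallower, with medians of 4352 and 2744 counts against 13570 and 10823. Their 0 counts at day 2 allow up to 57.3 CPM. T Cells of day 7 had 36 Nos2 counts, 34 of them in 25 cells with endothelial markers. Nos3, the endothelial nitric oxide synthase, had the same cell types as its main site, at 272 and 140 CPM in endothelial cells against 1.70 and 1.06 in monocytes and macrophages.

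Chil3, which encodes the chitinase-like protein Ym1, stood at 770 CPM at day 2 and 9.58 at day 7, an 80.4-fold difference. It is counted among M2 markers, yet at day 2 Monocyte (Inflammatory) was highest, at 1577 CPM. Monocyte (Cxcl10+) was at 942 CPM and M1 Macro. at 818, and both M2 labels were lower, at 446 and 275 CPM. At day 7 Monocyte (Inflammatory) was again highest, at 32.3 CPM from 18 counts, and the M2 labels had 1 count each. A count was seen in 65.6% of the class at day 2 and 4.10% at day 7, against 5.58% and 0.124% of FAPs, which should lack the gene and whose 3 labels had median depths of 11650, 23623 and 26217.5 counts at day 2. Ambient levels were 133 and 2.82 CPM. Its near-identical neighbour Chil4 had 7 and 0 counts in the class, and reads that could belong to either copy cannot be told apart here.

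Mrc1, the mannose receptor CD206, had its highest level in an M2 label on both days. At day 2 M2 Macro. (Cx3cr1_lo) stood at 1821 CPM, M1 Macro. at 806, Monocyte (Cxcl10+) at 514, Monocyte (Patrolling) at 429, M2 Macro. (Cx3cr1_hi) at 410 and Monocyte (Inflammatory) at 295. At day 7 the same label was highest, at 561 CPM, followed by M1 Macro. at 125. M2 Macro. (Cx3cr1_hi) was at 74.2, on the low side with the monocytes, so the 2 M2 labels stood at opposite ends of the macrophages. Over the class Mrc1 went from 831 to 135.5 CPM, or 6.13-fold lower, and it was lower in 6 of 6 labels. It was still seen in 49.4% of cells at day 7, after 68.9% at day 2. FAPs had it in 12.1% and 0.621%, and ambient RNA held 185 and 28.6 CPM.

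Retnla, the secreted resistin-like protein also called FIZZ1 or RELM-alpha, came from very few cells. The class held 543 counts in 14 of 1292 cells at day 2, and 1 cell had 327 of them. At day 7 it held 324 counts in 17 of 757 cells, with 118 in the highest. In M1 Macro. at day 2 that 1 cell gave 327 of 332 counts. The label levels, 49.0 CPM in M1 Macro., 56.1 in M2 Macro. (Cx3cr1_lo) and 0 in Monocyte (Inflammatory) at day 2, therefore describe single cells more than labels. At day 7 the highest levels were 153 CPM in M2 Macro. (Cx3cr1_hi), from 2 cells, and 110 CPM in Monocyte (Inflammatory), from 6. Cells with Retnla had Mrc1 in 14 of 14 cases at day 2 and 15 of 17 at day 7. They had Chil3 in 7 of 14 and 0 of 17. In cells without Retnla the shares were 68.5% and 48.5% for Mrc1 and 65.7% and 4.19% for Chil3. At day 2, 4 of the 14 cells with Retnla had neutrophil markers and held 364 of the 543 counts. Without any cell of the class that had such markers, the log2 ratio of day 7 over day 2 was 1.99 in place of 0.39, and without the highest cell of each day it was 1.06.

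**Figure D2:**
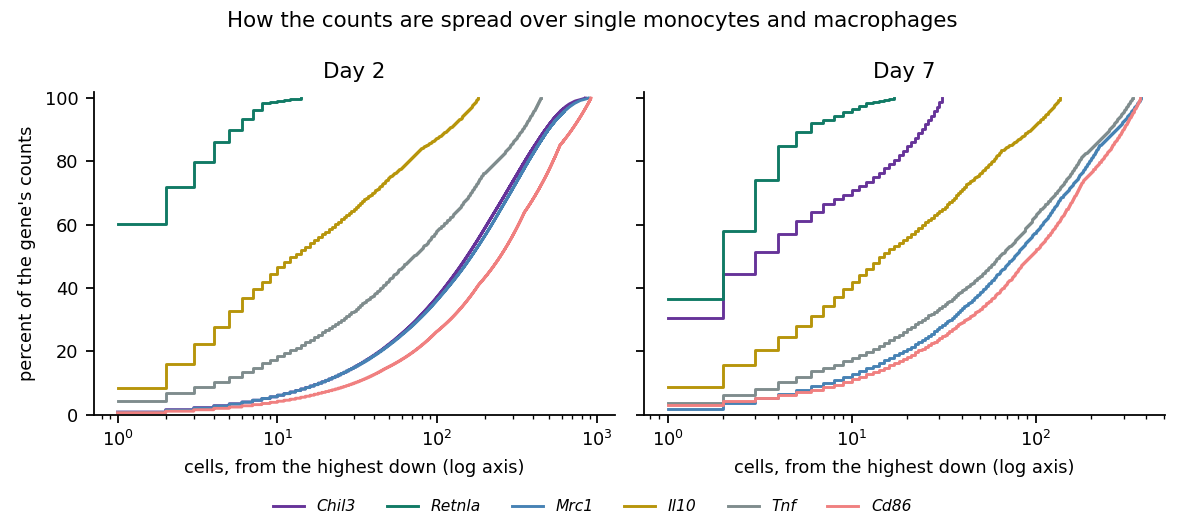
Share of a gene's counts (percent) held by the highest cells, counted from the highest down on a log axis, in monocytes and macrophages of each day. At day 2, 1 cell holds over 50% of Retnla counts and 13 cells hold 50% of Il10 counts, against 248 cells for Cd86.

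Il10, an anti-inflammatory cytokine, stood at 38.5 CPM at day 2 and 57.0 at day 7, and was seen in 13.9% and 18.0% of the class. At day 2 M2 Macro. (Cx3cr1_lo) was highest, at 101 CPM, and the next, M1 Macro., was at 29.8. At day 7 the order was flatter: M2 Macro. (Cx3cr1_lo) stood at 86.5 CPM, Monocyte (Patrolling) at 75.4 and M2 Macro. (Cx3cr1_hi) at 59.5. Il10 was concentrated, with 13 cells holding 50% of its counts at day 2 and 15 at day 7. T Cells of day 7 also had 38 counts, all in 12 of the 191 cells with T and NK markers. Ambient RNA held 13.1 and 16.3 CPM.

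Tnf, the inflammatory cytokine, was higher at day 7, at 114 CPM against 63.7 at day 2, and was seen in 44.4% of cells against 34.4%. M1 Macro. did not lead on either day. At day 2 M2 Macro. (Cx3cr1_lo) was highest at 97.98 CPM and M1 Macro. was at 63.8. At day 7 Monocyte (Inflammatory) was at 171 CPM and M2 Macro. (Cx3cr1_hi) at 168, with overlapping intervals, and M1 Macro. was lowest at 90.1. Neutrophils of day 2 stood at 804 CPM and held 53.2% of all Tnf counts of kept cells, and the ambient level of 53.4 CPM was near that of the day 2 class. Endothelial cells, at 35.0 and 36.4 CPM, and Smooth Muscle, at 29.4 and 36.9, held Tnf as well. In T Cells of day 2, 23 of 30 counts lay in 17 cells with basophil markers.

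Cd86, a co-stimulatory ligand for T cells, varied little between labels. It stood at 135 CPM at day 2 and 96.8 at day 7, and was seen in 71.1% and 48.9% of the class against 2.79% and 0.373% of FAPs. At day 2 M2 Macro. (Cx3cr1_hi) was highest at 194 CPM and M1 Macro., at 123, was close to M2 Macro. (Cx3cr1_lo) at 129. At day 7 the range was 67.0 CPM in Monocyte (Patrolling) to 131 in M2 Macro. (Cx3cr1_hi). Dendritic cells were as high, at 182 and 95.3 CPM. Ambient levels were 37.0 and 19.5 CPM.

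Over the class, 2 of the 6 members with enough counts were at least 4-fold lower at day 7 (Chil3 and Mrc1) and 0 were at least 4-fold higher. Among all 11318 genes with at least 20 counts, 2.49% were that much lower and 7.47% that much higher. Nos2, with 16 counts, was the member left out. The median log2 ratio of the 6 was -0.05, against -0.02 over all genes. The log2 ratio was -6.33 (-6.68 to -6.00) for Chil3. Mrc1 stood at -2.62 (-2.71 to -2.52), and Cd86 at -0.48 (-0.60 to -0.36). On the other side, Tnf was at 0.84 (0.71 to 0.97), Il10 at 0.57 (0.39 to 0.75) and Retnla at 0.39 (0.18 to 0.59). In single labels, the intervals lay below 0 for Cd86 in 5 of 6, above 0 for Tnf in 5 of 6 and for Il10 in 4 of 6, and on both sides for Retnla. A level is a share of all counts of a label, so fewer cells with a transcript and less transcript per cell cannot be told apart from the level alone. Chil3 was in 847 of 1292 cells at day 2, with a median of 10 counts per positive cell, and in 31 of 757 at day 7, with 1. Mrc1 was in 890 cells with a median of 10.5 and in 374 with 2. Both the cells and the counts per positive cell were thus fewer, at median depths of 11696 and 8546 counts.

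Labels of one library were set side by side as a description, since the labels were made by clustering cells on their expression. At day 2, 4 of 6 members were over 4-fold apart between the highest and the lowest of the 5 labels with at least 50 cells, where 6.38% of 7820 genes were. These were Chil3 (5.72-fold), Mrc1 (6.18-fold), Il10 (6.13-fold) and Retnla (at least 47.1-fold, against a label with 0 counts set at the floor of 3). Tnf and Cd86 were 2.4-fold and 1.66-fold apart. At day 7, 2 of 5 members passed, Mrc1 (8.63-fold) and Retnla (at least 73.2-fold, against the same floor), where 5.59% of 6242 genes did. Chil3, with 69 counts at day 7, fell short of the 100 counts required for this comparison. Its highest and lowest labels at day 7 were 13.2-fold apart with the 1 count of M2 Macro. (Cx3cr1_hi) taken as 3. Without that floor the log2 ratio was 5.31 (2.65 to 10.69). The floor leaves out the counting error of the higher label. With it, the lower ends of the Retnla log2 ratios were 5.25 at day 2 and 5.88 at day 7. These Retnla values rest on few cells, with a count in 7 cells of the highest label at day 2 and 2 at day 7. For Il10 at day 2, 4 of the 242 cells of M2 Macro. (Cx3cr1_lo) held 50% of that label's counts. The intervals leave out such clustering of counts within cells. The members that differed most between labels were M2 markers, and their highest label was M2 Macro. (Cx3cr1_lo) for Mrc1 on both days and for Il10, and Monocyte (Inflammatory) for Chil3.

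Set directly against each other, M1 Macro. and M2 Macro. (Cx3cr1_lo) differed in Mrc1, with a log2 ratio of M1 over M2 of -1.18 (-1.23 to -1.12) at day 2 and -2.16 (-2.37 to -1.95) at day 7. Il10 was lower in M1 Macro. as well, at -1.77 (-2.03 to -1.51) and -0.80 (-1.26 to -0.31). In the other direction, Chil3 was higher in M1 Macro. at day 2, by 0.87 (0.79 to 0.96). The M1 markers did not point to the M1 label. For Cd86 the day 2 ratio was -0.07 (-0.24 to 0.11) and the day 7 ratio 0.09 (-0.34 to 0.54). For Tnf they were -0.62 (-0.83 to -0.40) and -0.43 (-0.81 to -0.03). Against M2 Macro. (Cx3cr1_hi), M1 Macro. was higher in the M2 markers Chil3 and Mrc1 at day 2, at 1.57 (1.38 to 1.76) and 0.97 (0.82 to 1.13), and lower in Cd86 at -0.66 (-0.90 to -0.41). At day 7 Mrc1 was again higher in M1 Macro., at 0.76 (0.43 to 1.10), whereas Tnf was lower at -0.90 (-1.16 to -0.64) and Cd86 at -0.46 (-0.74 to -0.18). Chil3 stood at 3.72 (1.15 to 9.07) there, with 1 count in M2 Macro. (Cx3cr1_hi). Retnla stood at -3.19 (-3.65 to -2.76) at day 7, from 188 counts in 2 cells of M2 Macro. (Cx3cr1_hi). In M1 Macro. 1 cell held 52 of its 56 counts. At day 2 the Retnla ratio had the opposite sign, with an interval above 0. There 1 cell held 327 of 332 counts in M1 Macro., and 1 cell all 15 in M2 Macro. (Cx3cr1_hi). The intervals leave out this clustering, so the Retnla ratios compare single cells more than labels. The median depth was 13635.5 counts in M1 Macro., 12355 in M2 Macro. (Cx3cr1_lo) and 10167.5 in M2 Macro. (Cx3cr1_hi) at day 2, and 12528, 4830 and 7132 at day 7.

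The members were then summed as an M1 set (Nos2, Tnf and Cd86) and an M2 set (Chil3, Retnla, Mrc1 and Il10) in cells thinned to 2000 counts, which 1290 cells at day 2 and 753 at day 7 reached. Any M1 count was found in 30.6% (26.5 to 35.0) of M1 Macro. cells at day 2, in 31.95% (26.1 to 38.2) of M2 Macro. (Cx3cr1_lo) and in 32.9% (22.9 to 44.2) of M2 Macro. (Cx3cr1_hi). At day 7 the shares were 23.7% (18.3 to 29.7), 29.7% (21.0 to 39.6) and 37.7% (30.2 to 45.8). Any M2 count was found in 78.8%, 97.1% and 48.8% at day 2 and in 28.5%, 75.2% and 22.0% at day 7, in the same order of labels. The M2 set therefore separated the 2 M2 labels from each other on both days. Before thinning, most of its counts in M2 Macro. (Cx3cr1_lo) were Mrc1, with 5744 at day 2 and 324 at day 7. There Chil3 had 1407 and 1, Il10 320 and 50 and Retnla 177 and 16. M1 Macro. stood between the 2 M2 labels at day 2, and at day 7 its interval (22.7 to 34.8) overlapped that of M2 Macro. (Cx3cr1_hi) (15.8 to 29.3). The M1 set left M1 Macro. within the intervals of M2 Macro. (Cx3cr1_lo), and at day 7 it was less frequent in M1 Macro. than in M2 Macro. (Cx3cr1_hi), with intervals that did not overlap.

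With a cell of M1 Macro. set against a cell of M2 Macro. (Cx3cr1_lo), the M1 sum was higher in the first in 49.3% of pairs at day 2 and 47.0% at day 7, with ties split evenly, so that 50 percent is no separation. Against M2 Macro. (Cx3cr1_hi) it was higher in 48.3% and 43.3%. For the M2 sum, M1 Macro. was higher in 34.4% and 25.2% of pairs against M2 Macro. (Cx3cr1_lo), and in 70.4% and 53.4% against M2 Macro. (Cx3cr1_hi).

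At day 2 most cells had M2 counts only, and many had both sets, while cells with the M1 set alone were the fewest. In the class, 52.5% had M2 counts only, 24.7% (22.3 to 27.1) both, 6.74% M1 only and 16.1% neither. At day 7 the shares were 22.0% M2 only, 10.5% (8.39 to 12.9) both, 19.8% M1 only and 47.7% neither. The product of the shares with any M1 and any M2 count was 24.2% at day 2 and 9.85% at day 7, close to the shares with both. Within M1 Macro. at day 2, 55.0% had M2 only and 6.85% M1 only. A cell with 0 thinned counts may still hold the transcript, since 2000 counts are a small part of a median cell of M1 Macro. Endothelial cells, thinned alike, had an M1 count in 25.6% and 18.3%, mostly from Nos2 and Tnf, and an M2 count in 3.01% and 0.619%.

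**Figure D3:**
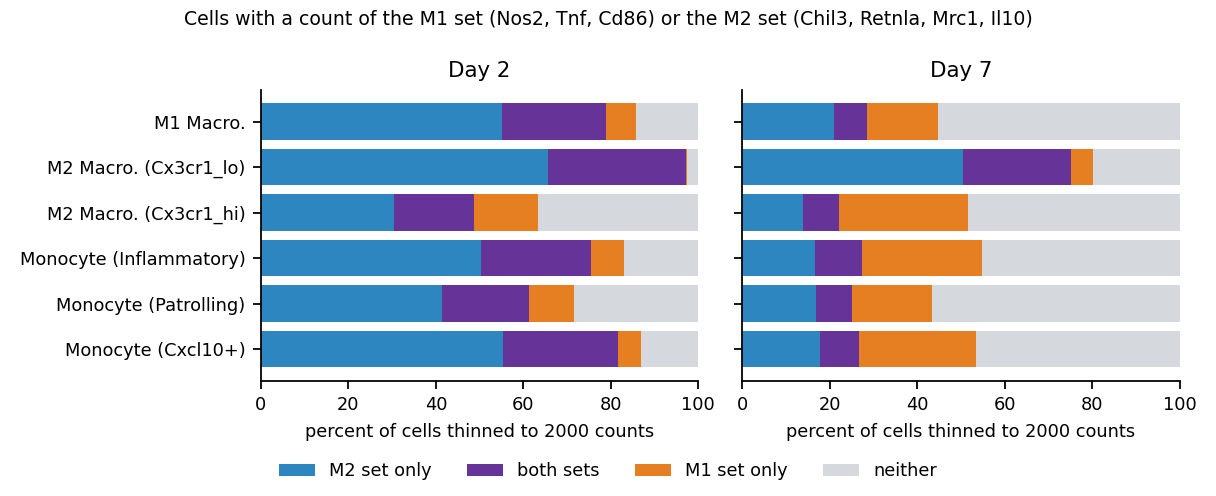
Percent of cells, thinned to 2000 counts, with a count of the M2 set only (blue), both sets (purple), the M1 set only (orange) or neither (grey), in each label and day. M2 Macro. (Cx3cr1_lo) has the fewest cells without M2 counts on both days, and M1 Macro. is not the label with most M1 counts.

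Co-occurrence was read as the share of cells with one gene among cells with and without another, and it is a description over cells of 1 library that share its depth and ambient RNA. A pair was used when each gene was in at least 20 thinned cells. Of the 12 pairs of an M1 and an M2 member, 6 could be used at day 2. The intervals of 3 lay above 0 and that of 1 below, and only Il10 with Tnf kept its side, interval included, in each of 4 random thinnings. Tnf was in 21.8% of the 55 cells with Il10 and in 10.0% of the others, a difference of 11.8 points (1.61 to 25.1), and over the thinnings it ran from 9.70 to 22.0 points. Without the cells that had neutrophil markers it was 11.9 points. Within M2 Macro. (Cx3cr1_lo) the difference was 32.3 points (9.80 to 56.2), with 9 of 20 Il10 cells also having Tnf. Over the 4 thinnings it ran from 11.7 to 33.4 points, and its interval lay above 0 in 3. These 20 cells are part of the 55, and the pair could be used in no other single label at day 2. The class value pools labels with unlike levels of both genes, and M2 Macro. (Cx3cr1_lo) was highest in both. Whether the pair goes together outside that label was not tested.

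Tnf was also in 12.4% of Mrc1 cells against 8.80%, a difference of 3.56 points (0.10 to 7.05) whose interval lay above 0 in 3 of the 4 thinnings. Within M2 Macro. (Cx3cr1_lo) the same pair went the other way, at -21.98 to -8.80 points over the thinnings, with an interval below 0 in 2 of the 4. Cd86 was in 20.3% of Mrc1 cells against 25.5%, or -5.21 points (-9.87 to -0.51), below 0 in 3 of the 4. Within M1 Macro. that pair stood at -13.4 points (-21.1 to -5.48), but ran from -13.7 to 1.3 points over the thinnings, with an interval below 0 in 3 of the 4. Within M2 Macro. (Cx3cr1_hi) it ran from -38.1 to -10.6 points, also below 0 in 3. Within M2 Macro. (Cx3cr1_lo) it stood at 20.5 points (0.38 to 26.4), above 0 in 1 of the 4 and as low as -4.24 points in another. Chil3 with Cd86 stood at 5.58 points (0.88 to 10.3), but its interval lay above 0 in only 1 of the 4. At day 7, 4 pairs could be used and the intervals of all 4 spanned 0. For Il10 with Tnf the day 7 difference was 4.91 points (-5.53 to 18.4), the highest of the 4 thinnings, which ran from -9.91 points, and whether the days differ was not tested.

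Over the whole class, M2 markers did not all go together. Mrc1 was less frequent in Chil3 cells of day 2, at 43.8% against 53.7%, or -9.87 points (-15.4 to -4.31), and lay below 0 in all 4 thinnings. This pools labels with unlike levels of both genes. Within single labels the intervals of this pair spanned 0, at -3.43 points in M1 Macro., -0.40 in M2 Macro. (Cx3cr1_lo), -6.53 in Monocyte (Inflammatory) and -0.98 in Monocyte (Patrolling). Over the 4 thinnings they lay below 0 in 2 for M1 Macro. and in 1 for Monocyte (Inflammatory). The intervals of Il10 with Mrc1 and of Il10 with Chil3 spanned 0.

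**Figure D4:**
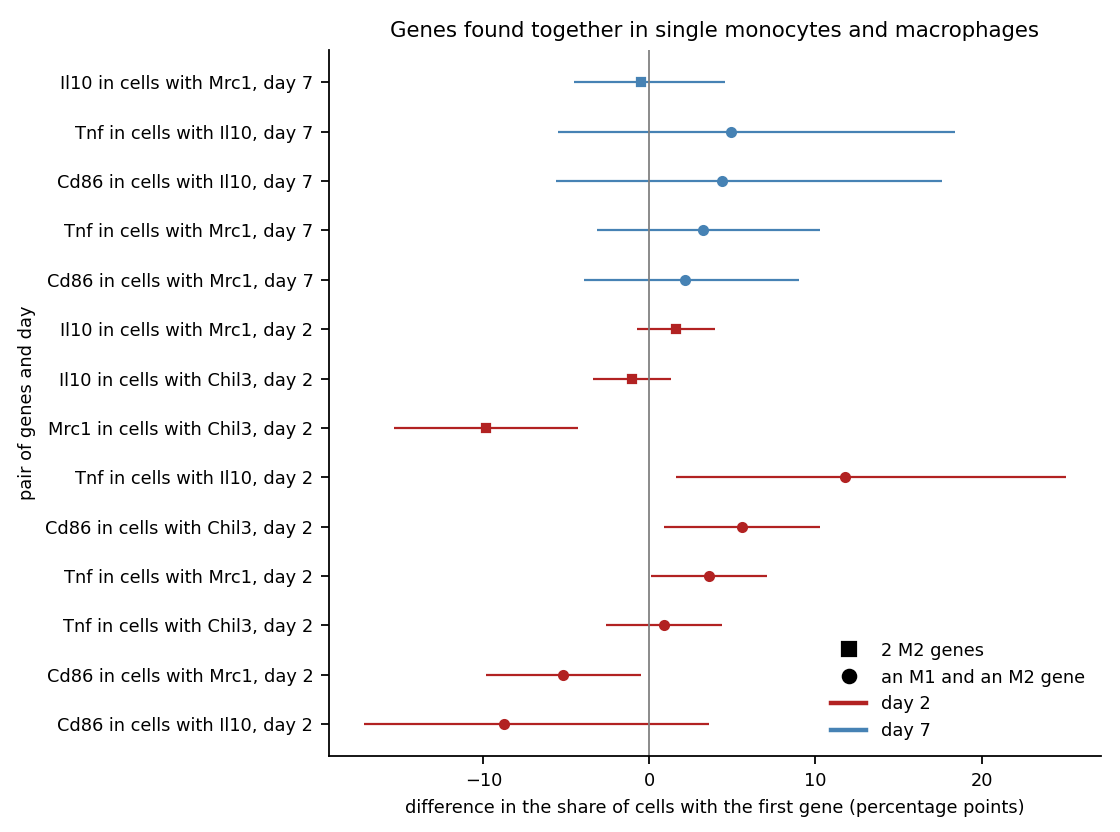
Share of cells with the first gene among cells with the second minus the share among cells without it (percentage points, 95% intervals), for pairs of M1 and M2 members (circles) and of M2 members (squares), day 2 red and day 7 blue. Tnf with Il10, Tnf with Mrc1 and Cd86 with Chil3 lie above 0 at day 2, and Mrc1 with Chil3 and Cd86 with Mrc1 below.

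Around Nos2, 32 genes of arginine uptake, synthesis, nitric oxide, polyamine, proline and creatine metabolism were listed, and 26 had enough counts in monocytes and macrophages. Of these, 4 were at least 4-fold lower at day 7 and 1 was higher, with a median log2 ratio of -0.76, where 2.49% and 7.47% of all genes were and their median was -0.02. Arginine uptake gave 2 of 5, Slc7a1, the main cationic amino acid transporter, at 28.2 and 3.06 CPM (log2 ratio -3.21), and Slc7a6. The list of ornithine and polyamine genes, which also holds genes of polyamine breakdown and control, gave the other 2 of 10. Odc1, ornithine decarboxylase, was at 511 CPM at day 2 and 76.7 at day 7 (-2.74), and Srm, spermidine synthase, at 58.5 and 12.8 (-2.20). Sat1, which acetylates polyamines for export or breakdown, was instead at 465 and 1079 CPM (1.22). The gene that was higher was Gatm, which uses arginine in creatine synthesis, at 20.8 and 188 CPM (3.18), and Gamt, the next enzyme, was at 9.58 and 24.1 (1.33). Ambient RNA held 227 and 99.1 CPM of Odc1, 54.4 and 32.0 of Srm and 19.98 and 11.1 of Slc7a1, and Slc7a6 stood at 13.7 and 3.19 CPM against 9.17 and 8.26. All 4 lower genes were thus below ambient at day 7, and Srm was close to it at day 2. In ambient RNA there were 9.50 and 41.1 CPM of Gatm and 5.24 and 42.1 of Gamt. None of 2 genes of arginine synthesis, 3 of nitric oxide and 4 of proline reached 4-fold.

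Other genes used as polarization markers went both ways within each class of marker. Of 16 further M1 markers with enough counts, 4 were at least 4-fold higher and 1 lower, with a median of 0.71, where 7.47% of all genes were higher and 2.49% lower. Ccl5, a T cell chemokine, was at 3.88 and 191 CPM (5.62), Cxcl9 at 2.49 and 26.1 (3.39) and Gbp2, an interferon-induced GTPase, at 14.0 and 76.9 (2.46), and the fourth was Gbp5 (2.34). Ambient RNA of day 7 held 214 CPM of Ccl5 and 60.6 of Cxcl9, more than the class, and 61.6 of Gbp2 and 5.03 of Gbp5, close to it. The lower gene was Ptgs2, the inducible cyclooxygenase, at 125 and 29.4 CPM (-2.09), where ambient RNA held 148 and 29.0 CPM. The part of ambient RNA in these 5 calls was not tested. Of 17 further M2 markers, 4 were lower and 1 higher, with a median of -0.49. The chemokine Ccl24 was at 159 and 4.52 CPM (-5.14), the transglutaminase F13a1 at 419 and 33.0 (-3.67) and the scavenger receptor Cd163 at 50.3 and 3.99 (-3.66), and the fourth was Msr1 (-3.57). Ambient levels of these 4 are not given here, and the part of ambient RNA in their calls was not tested. Igf1, a growth factor for muscle, was at 18.7 and 173 CPM (3.21), with 10.2 and 103 in ambient RNA.

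The ligands Ifng, Il4 and Il13 were all but missing from the macrophages, whereas Tnf and Il10, which stand among the ligands too, were detected as given above. Ifng had 0 and 8 counts, Il4 0 and 1 and Il13 0 on both days. Of 5 ligands with enough counts, 1 was at least 4-fold higher, Tslp, from 9 and 22 counts, below ambient RNA on both days. For this list and the next 2, the shares over all genes were again 7.47% higher and 2.49% lower. Ifng was in NK Cells, at 265 and 713 CPM, and in T Cells at day 7, at 397 CPM. Il4 had 213 counts in the T Cells of day 2, a label in which 17 of 50 cells had basophil markers. Of 14 receptors 1 was at least 4-fold higher, Il10ra (2.31), and Csf1r was at 1.18 and Ifngr1 at 0.88, while Csf2rb stood at -0.997, Tnfrsf1a at -0.72 and Il4ra at -0.55. Of 12 transcription factors 1 was at least 4-fold lower, Hif1a (-2.49), the hypoxia factor, at 308 and 54.7 CPM against 113 and 58.8 in ambient RNA. Cebpb stood at -1.80 and Klf4 at -1.39, both used as M2 regulators, while Nr4a1 stood at 1.098 and Pparg at 0.68.

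Genes with the most similar pattern were sought over 29 groups of label and day with at least 50 cells, among 10956 genes, by Pearson r of log2(CPM + 1). The groups share libraries, cells of related types and ambient RNA, and r is given as a description. For Chil3 the leading gene was Cd177 (r = 0.93), for Tnf Dazap2 (0.93) and for Cd86 Rbm47 (0.96). Mrc1 was most like Cfp (0.96), Il10 like Tlr1 (0.93) and Retnla like Siglec1 (0.81). Nos2 was most like Mall (0.98), followed by She and the endothelial transcription factor Erg.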

How the data were processed

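The data were 2 droplet single-cell RNA libraries of dissociated mouse tibialis anterior. The authors deposited whole-number UMI counts for all barcodes and for called cells (Cell Ranger 3.1.0 per the processing notes, 3.0.1 per the file headers, mm10), SoupX-corrected values, which are estimated counts, and a table of cell types from a larger integrated collection. Per the methods, the authors removed putative doublets with DoubletFinder; the table holds no doublet calls and no caller was run here. Cells were kept with a label and, in SoupX values, at least 750 genes, 1000 transcripts and at most 30% mitochondrial transcripts, which removed 316 and 189 labelled barcodes at days 2 and 7. The libraries held 41123913 and 32356088 counts in 4836 and 4889 called barcodes.

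Uncorrected counts were summed per label and day and given as CPM. Intervals (95%) were exact Poisson for levels, Clopper-Pearson for shares, conditional binomial for ratios and square-and-add for differences of shares. They cover counting error only. Since cells of 1 library are not replicates, p-values were not computed. Day comparisons used genes with at least 20 counts, label comparisons genes with at least 100, and counts under 3 were taken as 3. Cells were thinned without replacement to 2000 counts (seed 41), without those below that depth. Barcodes of 1 to 100 counts stood for ambient RNA. Members and lists were chosen with earlier results of these data known, and 3 listed genes are not reported here. Named list genes were the 3 highest and 3 lowest ratios among genes with at least 100 counts in 1 library, and any gene on which a count of 5 or fewer fell. The M1 and M2 sets, other lists and label pairs were handled alike, and 27645 of 27998 gene identifiers matched GENCODE. The ratios and pairs were tested on simulated counts. Python 3.11.15, numpy 2.4.6, scipy 1.17.1, pandas 2.3.3 and matplotlib 3.10.9 were used.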

Additional observations from a re-analysis of the deposited data

Results flagged for a closer look

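Called barcodes that met the same quality limits as the kept cells but had no cell type label, which no comparison above uses, held the members above the level that a count of 0 allows, except Chil3 at day 7 with 2 counts. At day 2 there were 710 of them with 5888308 counts, and their levels were 17.2 CPM for Nos2, 351 for Chil3, 24.6 for Retnla, 439 for Mrc1, 16.0 for Il10, 57.6 for Tnf and 74.6 for Cd86. At day 7 there were 502 with 3315073 counts, at 39.5 CPM for Nos2, 16.0 for Retnla, 34.7 for Mrc1, 9.95 for Il10, 39.2 for Tnf and 19.9 for Cd86.

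Retnla moved in opposite directions between the days in single labels. With counts of 0 taken as 3, the log2 ratio of day 7 over day 2 was -1.71 in Monocyte (Patrolling), where 19 counts of 1 cell were followed by 0, and 6.52 in Monocyte (Inflammatory), where 0 counts were followed by 61 in 6 cells. The difference between these labels was not tested.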

How the results depend on the processing

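The 2 members lower and 0 higher at day 7 and the numbers of members apart between labels moved by at most 1.5 times under the alternatives tried. Over 8 alternatives the log2 ratio ranged from -6.84 to -6.18 for Chil3, -2.72 to -2.03 for Mrc1, -0.58 to -0.42 for Cd86, 0.34 to 0.84 for Il10, 0.81 to 1.11 for Tnf and 0.35 to 1.99 for Retnla. At a 2-fold threshold the arginine list gave 11 lower and 4 higher genes, and with no minimum count 2 higher. M1 and M2 pairs above 0 at day 2 numbered 0 with 2 counts per positive cell and 1 in 1 further thinning, in place of 3, and 2 or 3 in the other alternatives. Pairs below 0 numbered 0 or 1 there, and 1 at day 7 without thinning, in place of 0. Cd86 with Chil3 changed side to -1.31 points without thinning, -0.049 with 2 counts per positive cell and -0.52 in 1 further thinning, and Cd86 with Mrc1 to 0.95 without thinning. Tnf with Mrc1 stood at 1.42 with 2 counts per positive cell and 3.42 in 1 further thinning, with intervals that spanned 0. Il10 with Tnf and Chil3 with Mrc1 kept their side of 0, intervals included, under each alternative tried, although with 2 counts per positive cell Il10 was in too few cells for its pairs to be counted. The cause was not tested. Leaving out neutrophil-marker cells for pairs, leaving out the highest cell and the 3 further thinnings were chosen after seeing the data. No paired analysis was possible because each day had 1 library. With 1 mouse per day, spread between animals is unknown. The part of depth in the low Nos2 counts of monocytes and macrophages was not tested.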
